A study of Mus musculus with 4 samples.

Results

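Cbln1-negative reticular stromal cells of the long-bone metaphysis were selected cell by cell from 4 single-cell RNA-seq libraries. A barcode was a member if it held at least 1 UMI of Lepr, at least 1 of Adipoq and at least 10 of Cxcl12, none of Cdh5, Ptprc or Cbln1, and under 200 Bglap UMIs per 10000. A UMI is a molecular tag that marks 1 captured transcript. The rule picked 3059 of the 24739 barcodes that held at least 1000 UMIs and 800 genes, under 15% mitochondrial and under 5% hemoglobin UMIs. The libraries came from 12-week-old mice on a C57/BL6 background, 2 from Lats2iECKO mutants and 2 from controls. Mutants carried floxed Lats2 alleles (Lats2 lox/lox) and the tamoxifen-inducible Cdh5(PAC)-CreERT2 transgene, which is driven by an endothelial promoter, so the reticular cells are not the cells targeted for deletion. Controls were Cre-negative littermates, and both groups received tamoxifen before analysis. The metaphysis of femur and tibia was digested and depleted of lineage-positive, CD45+ and CD117+ cells before 10x Genomics 3′ capture. No source used here says whether a library held 1 animal or a pool, and none names a batch, so p-values measure only the spread between these libraries.

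Reticular cells with high Cxcl12 form a network around the sinusoids of the bone marrow. They carry the leptin receptor, secrete adiponectin, and feed hematopoietic stem and progenitor cells with factors such as stem cell factor (Kitl), Cxcl12 and interleukin 7. The same lineage gives rise to marrow adipocytes and, with injury or age, to osteoblasts and matrix-producing cells, so genes of the fat and bone programs are both measured in it. Cbln1 encodes cerebellin 1, a secreted synaptic organizer, and marks some of these cells in the metaphysis.

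Each library held between 69636600 and 85899079 UMIs, and 5133 to 6868 of its barcodes passed the filters. Members had a median of 6052 and 5609 UMIs in Lats2iECKO libraries 1 and 2 and of 6300.5 and 6239 in control libraries 1 and 2, and the same order is kept for all pairs of values. Their median mitochondrial share was 3.86% and 3.89% against 3.15% and 3.32%. Only 2 member barcodes were found in more than 1 library, both in the control pair. In endothelial cells (ECs), the targeted gene Lats2 stood at 94.1 and 95.3 CPM (UMI counts scaled to a common total) against 128 and 114 CPM. The Cre-ERT2 transcript stood there at 53.4 and 46.5 CPM against 1.18 and 0.196 CPM. In members, the CPM of single genes also include TMM factors. The CPM of other classes, of free RNA and of marker sums do not. Members held at most 0.513 CPM of Cre-ERT2, and their Lats2 level was 79.0 and 88.3 CPM in the Lats2iECKO libraries and 90.9 and 90.5 CPM in the controls (log2 fold change −0.11, SE 0.0900, edgeR adjusted p = 0.401). Free RNA, read from barcodes of 10 to 100 UMIs, made up an estimated 1.96% and 2.22% of member UMIs in the mutants and 2.43% and 2.54% in the controls.

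The label was checked against its markers. Hp, the plasma protein haptoglobin, was at 3982 and 4177 CPM in the Lats2iECKO libraries and 3830.1 and 4012 CPM in the controls and did not pass the test (log2 fold change 0.06, SE 0.0688, edgeR adjusted p = 0.587). The Wnt agonist Rspo2 was at 253 and 328 CPM in the Lats2iECKO libraries and 524 and 509 CPM in the controls, and the potassium channel gene Kcnq3 at 259.6 and 272 CPM in the Lats2iECKO libraries and 501 and 439 CPM in the controls. Both were detected in members and were far lower in free RNA, at 8.05 to 43.3 CPM for Rspo2. Marker sets of other cells were summed over members as well. The 10 endothelial markers summed to 19.6 and 22.1 CPM against 51.1 and 26.8 CPM, with Cdh5 at 0 by the rule and Stab2 at 0 in both Lats2iECKO libraries. The 12 leukocyte markers summed to 58.3 and 45.0 CPM against 49.6 and 59.1 CPM. Genes of hemoglobin and erythroid cells (7 markers) summed to 1229 and 1049 CPM against 971 and 1140 CPM, while free RNA held 44233 and 45959 CPM of them in the mutants and 10891 and 12034 CPM in the controls. Osteoblast markers (10, none at 0) summed to 3381 and 3533 CPM against 4312 and 4282 CPM. The 12 chondrocyte markers summed to 5745 and 3101 CPM against 3079 and 2386 CPM, also with none at 0. Sums of 10 smooth muscle and pericyte markers were 289 and 416 CPM against 407 and 619 CPM, of 10 fibroblast markers 159 and 104 CPM against 96.9 and 60.9 CPM, and of 5 megakaryocyte markers 26.1 and 14.6 CPM against 96.4 and 61.8 CPM. At least 50 UMIs per 10000 of endothelial, leukocyte, erythroid or chondrocyte markers were carried by 22 and 16 members of the mutants and by 56 and 54 of the controls, and the counts of genes changed between genotypes in members were repeated without these cells. The Y-linked gene Ddx3y stood at 66.7 and 68.6 CPM in the Lats2iECKO libraries and 66.4 and 67.1 CPM in the controls, with Xist at or under 0.964 CPM in each library. This is the pattern of male cells in each library. The study states that both sexes were used, without giving the sex behind each library.

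Cbln1-negative reticular cells made up a far smaller share of the Lats2iECKO libraries. There were 288 members among 5133 barcodes in the first mutant library, or 5.61% (95% Clopper-Pearson interval 5.0% to 6.28%), and 354 among 5899 in the second, or 6.0% (5.41% to 6.64%). The controls held 1200 of 6868, or 17.5% (16.6% to 18.4%), and 1217 of 6839, or 17.8% (16.9% to 18.7%). Both mutant libraries lay below both controls, with 5.81% ± 0.276 against 17.6% ± 0.228 (SD, n = 2 each), a 3.04-fold lower share. The exact two-sided permutation test over libraries gave p = 0.333, the smallest value that 2 libraries against 2 allow. Intervals cover counting error only. With ECs and leukocytes left out of the denominator, members made up 6.43% and 6.97% against 20.7% and 21.0%. A share of captured barcodes falls both when a cell type is lost and when others are gained or are recovered better, and these cannot be told apart here.

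Within the reticular cells, the split by Cbln1 was less different between genotypes. Reticular cells of either Cbln1 state numbered 433 and 524 in the mutants and 1687 and 1671 in the controls, or 8.66% ± 0.316 against 24.5% ± 0.0918 of barcodes (SD, n = 2), a 2.83-fold lower share. Of these, Cbln1 was at 0 in 66.5% (95% interval 61.9% to 70.9%) and 67.6% (63.4% to 71.6%) of cells in the mutants and in 71.1% (68.9% to 73.3%) and 72.8% (70.6% to 75%) in the controls. The means were 67.0% ± 0.739 and 72.0% ± 1.20 (SD, n = 2), and the libraries of the 2 groups did not overlap. Cbln1 is a gene of the rule, so this is given as a description with no test. Since a UMI of Cbln1 can be missed in a shallow cell, cells of at least 5000 UMIs were also thinned to 5000 UMIs, which gave 71.2% and 69.7% against 74.6% and 78.0%. In ECs, which should lack the gene, 2 of 2166 cells held a Cbln1 UMI at median depths of 5486 to 6979 UMIs.

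**Figure D1:**
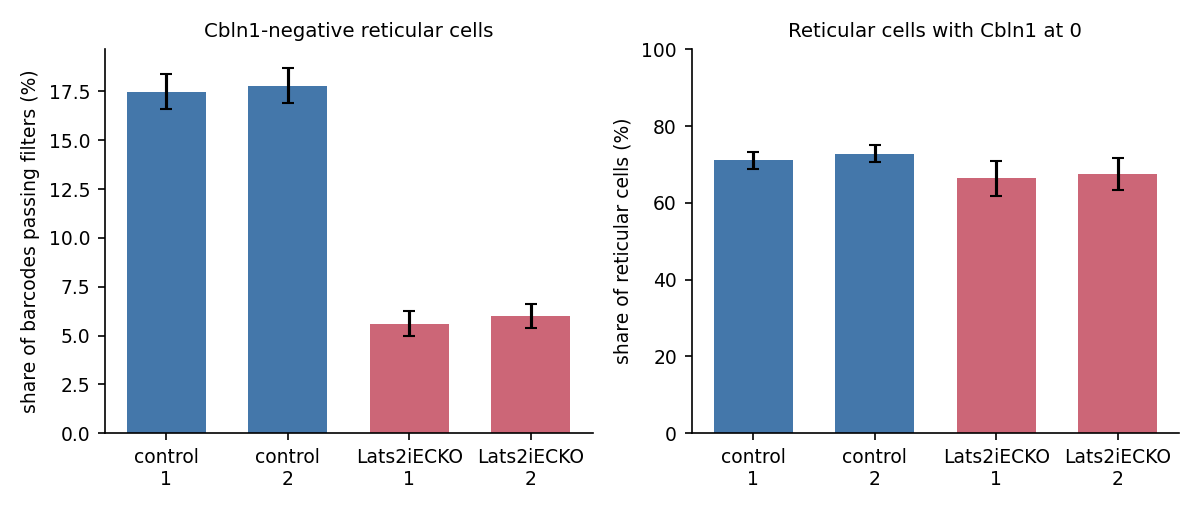
Left, share of barcodes that passed the filters and met the rule (y axis, percent, from 0) in each library (x axis), and right, share of Lepr/Adipoq/Cxcl12 reticular cells with Cbln1 at 0. Bars are single libraries and whiskers 95% Clopper-Pearson intervals. The mutant libraries sit at 5.61% and 6.0% on the left, under the controls at 17.5% and 17.8%, and at 66.5% and 67.6% on the right, closer to the controls at 71.1% and 72.8%.

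The genes of the rule are given as a description, with no test. Median UMIs per member cell were 9.5 and 10 against 10 and 10 for Lepr and 117 and 109 against 124 and 125 for Cxcl12. For Adipoq the medians were 10 and 8 in the mutants and 6 and 6 in the controls. Summed over members, Adipoq was at 1806 and 1744 CPM in the Lats2iECKO libraries and 1167 and 1139 CPM in the controls, with no overlap of groups. Few cells sat near the Cxcl12 threshold, with 2, 3, 0 and 4 members at 10 or 11 UMIs and 1, 0, 3 and 3 excluded cells at 8 or 9. More sat near the others. A single Adipoq UMI was held by 20 and 19 mutant members and by 132 and 132 control members, and 49 and 57 against 223 and 221 cells that met the rest of the rule had none. A single Lepr UMI was held by 16 and 19 against 38 and 27 members, and 22 and 32 against 13 and 13 further cells had none. Outside the rule by 1 Cbln1 UMI were 85 and 91 cells against 260 and 267.

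Expression was compared between genotypes on UMI counts summed over members in each library, with edgeR's quasi-likelihood test and Benjamini-Hochberg adjustment over 5297 genes. Of these, 42 (0.793%) were higher and 16 (0.302%) lower in Lats2iECKO by both thresholds, an adjusted p no greater than 0.05 and a shift of 1 or more on the log2 scale. By adjusted p alone, 463 genes (8.74%) rose and 441 (8.33%) fell, and with scaling to library size in place of TMM factors 393 rose and 610 fell. With DESeq2 264 rose and 190 fell, with no filter 136 and 141, and with no condition on Cbln1 850 and 797. The falls came to 275 without Lats2iECKO replicate 1 and to 273 without control replicate 1. The median log2 fold change of all genes tested was 0.00 with TMM factors and −0.04 with scaling to library size. In every fit with 1 library left out, 37 of the 42 and all 16 kept an adjusted p of at most 0.05. Without the cells that carry markers of other types, 32 of the 42 and 15 of the 16 were still past both thresholds. Without Lats2iECKO replicate 1, only 26 genes were higher by both thresholds. The 42 included 11 immediate early genes. In all 42 and all 16, the libraries did not overlap between genotypes, and the largest changes were named on that condition. The share of all genes tested without overlap was not counted. A lack of overlap in single genes is therefore a description only.

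**Figure D2:**
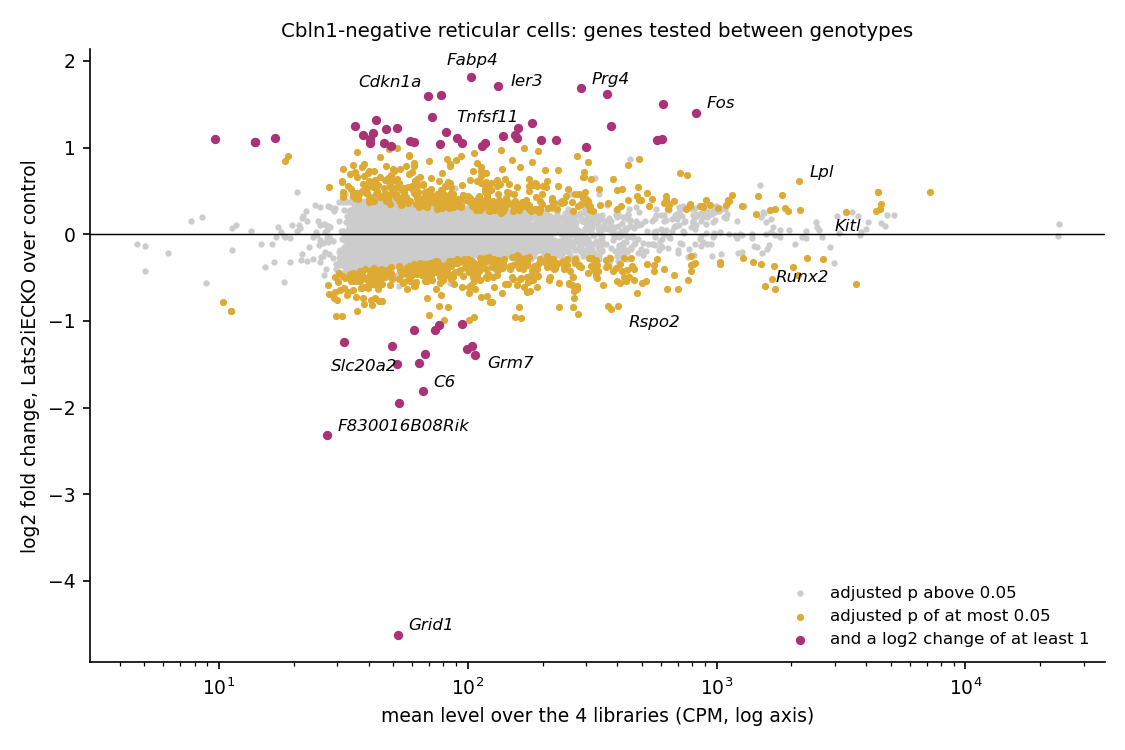
Genes tested between genotypes in Cbln1-negative reticular cells, with the mean level over the 4 libraries on the x axis (CPM, log axis) and the log2 fold change of Lats2iECKO over control on the y axis. Grey points have an adjusted p above 0.05, yellow points pass that threshold, and purple points also shift by 1 or more on the log2 scale. Grid1 stands apart at −4.62, and the rises reach 1.81 at Fabp4.

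Among the genes tested, the largest fall was in Grid1, which encodes the glutamate receptor subunit GluD1, a synaptic receptor that binds cerebellins. The gene lies on chromosome 14 of GRCm39 from 34541769 to 35305336. Its level was 6.16 and 2.24 CPM in the Lats2iECKO libraries and 99.9 and 101 CPM in the controls, a 24.6-fold lower level (log2 fold change −4.62, SE 0.22, edgeR adjusted p = 7.00e-06). The controls were alike and both mutant libraries were close to 0. With each library left out in turn, the log2 fold change lay between −5.47 and −4.02. Grid1 UMIs were found in 2.08% and 0.847% of mutant members and in 21.4% and 20.9% of control members. After thinning to 5000 UMIs the shares were 1.53% and 1.44% against 21.0% and 18.7%, which left out 92 and 146 against 320 and 313 shallower cells. In ECs the thinned share was at most 1.13% in any library, near the mutant members. Detection in at least 20% of unthinned members of either genotype was required for the test. Grid1 met this through the controls alone, where it was the higher, and by a small margin. Of 18 genes listed as cerebellin partners and synaptic genes, 5 were tested, 4 (80%) fell and none rose, against a background of 8.33% and 8.74% (median log2 fold change −0.79). Beside Grid1 these were Kcnq3 (log2 fold change −0.82, SE 0.0927, edgeR adjusted p = 3.86e-04), the potassium channel gene Kcnk2 (log2 fold change −0.79, SE 0.12, edgeR adjusted p = 0.00174) and the calcium channel gene Cacna1c (log2 fold change −0.51, SE 0.0775, edgeR adjusted p = 0.00214). Nlgn2, a neuroligin, had a log2 fold change of −0.02 (edgeR adjusted p = 0.926). Kcnq3 is also 1 of the markers of the label and Kcnk2 is also listed with the bone genes. Apart from Grid1, the genes of the list that fell are channel genes. The list was drawn up with earlier results of these data known.

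Of the other falls of at least 2-fold, those of C6, Slc20a2, Grm7 and Slco1a5 are given first. C6, a terminal complement component, was at 30.3 and 28.7 CPM in the Lats2iECKO libraries and 109.6 and 96.8 CPM in the controls (log2 fold change −1.81, SE 0.12, edgeR adjusted p = 4.03e-05). The phosphate transporter gene Slc20a2 was at 33.9 and 33.2 CPM in the Lats2iECKO libraries and 93.4 and 93.8 CPM in the controls (log2 fold change −1.48, SE 0.10, edgeR adjusted p = 4.45e-05). In both genes the mutant libraries lay well under the lower control. Grm7, a metabotropic glutamate receptor gene, was at 55.4 and 61.9 CPM in the Lats2iECKO libraries and 176 and 134 CPM in the controls (log2 fold change −1.40, SE 0.15, edgeR adjusted p = 3.64e-04). The organic anion transporter gene Slco1a5 was at 22.6 and 31.8 CPM in the Lats2iECKO libraries and 78.8 and 75.9 CPM in the controls (log2 fold change −1.49, SE 0.14, edgeR adjusted p = 1.66e-04). Spread was wider in the controls for Grm7 and in the mutants for Slco1a5. Chl1, of the L1 family of adhesion molecules, was at 54.9 and 65.5 CPM in the Lats2iECKO libraries and 159 and 137 CPM in the controls (log2 fold change −1.29, SE 0.12, edgeR adjusted p = 1.45e-04), and Unc5c, a netrin receptor gene, at 58.5 and 55.2 CPM in the Lats2iECKO libraries and 161 and 124 CPM in the controls (log2 fold change −1.33, SE 0.15, edgeR adjusted p = 3.75e-04). For Unc5c, free RNA held 141 and 169 CPM against 247 and 227 CPM, more than the members, and the gene was not tested once cells with markers of other types were removed. F830016B08Rik fell most after Grid1, from 46.4 and 44.6 CPM in the controls to 6.67 and 11.2 CPM (log2 fold change −2.32, SE 0.19, edgeR adjusted p = 1.05e-04). Gm47283 (log2 fold change −1.95), Ptchd1 (−1.38), Gas7 (−1.28) and Ildr2 (−1.24) were the remaining genes among the 12 largest falls, and Apod, Klf12, Rgs7bp and C2 completed the 16. As for Grid1, the detection filter could be met through the controls alone in these falls too. Shares of cells are not given for them.

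Immediate early genes, which encode transcription factors and feedback regulators switched on within minutes of many stimuli, were higher throughout. All 17 of the list that were tested rose, 11 of them by at least 2-fold, with a median log2 fold change of 1.08 where the background of rising genes was 8.74%. Fos was at 1287 and 1115 CPM in the Lats2iECKO libraries and 472 and 436 CPM in the controls (log2 fold change 1.40, SE 0.0929, edgeR adjusted p = 3.80e-05). Its partners followed, with Jun at 943 and 700.4 CPM in the Lats2iECKO libraries and 413 and 357 CPM in the controls (log2 fold change 1.09, SE 0.13, edgeR adjusted p = 6.25e-04) and Junb at 873 and 699.5 CPM in the Lats2iECKO libraries and 392 and 351 CPM in the controls (log2 fold change 1.08, SE 0.11, edgeR adjusted p = 2.44e-04). Mutant libraries lay above controls in each of these genes, and Lats2iECKO replicate 1 was the higher of the pair. Btg2, an antiproliferative gene, was at 282 and 234 CPM in the Lats2iECKO libraries and 103 and 109 CPM in the controls (log2 fold change 1.28, SE 0.0936, edgeR adjusted p = 5.39e-05), and the phosphatase gene Dusp1 had a log2 fold change of 1.11 (edgeR adjusted p = 1.76e-04). The stress-induced gene Ier3 was at 222 and 184 CPM in the Lats2iECKO libraries and 64.9 and 59.1 CPM in the controls (log2 fold change 1.71, SE 0.10, edgeR adjusted p = 3.07e-05). Klf4, a Kruppel-like factor gene of the list, was at 119.5 and 88.3 CPM in the Lats2iECKO libraries and 44.8 and 36.0 CPM in the controls (log2 fold change 1.35, SE 0.15, edgeR adjusted p = 3.86e-04) and its relative Klf2 at a log2 fold change of 1.23 (edgeR adjusted p = 3.64e-04). The smallest rise in the list was that of Klf6 (log2 fold change 0.26, SE 0.0782, edgeR adjusted p = 0.0482). Of the 17, 16 passed in each fit with 1 library left out, 16 without cells carrying other markers and 16 with free RNA subtracted. Free RNA of the mutant libraries also held more Fos and Btg2, with Fos at 2061 and 2059 CPM against 990.2 and 1021 CPM and Btg2 at 342 and 325 CPM against 132 and 142 CPM.

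Upstream sequences of 4 of these genes are shown. Each of the 4 holds a marked element or core, so they do not stand for the whole list. Each is the 200 bases before the annotated start, 5′ to 3′ on the gene's strand, from RefSeq on GRCm38.p6, a build older than that of the files. Capitals mark TGACGTCA, the palindromic element bound by CREB and ATF proteins, or its 5-base cores TGACG and CGTCA, which it contains. Btg2 and Dusp1 hold the full element and Fos and Junb a core only.
Btg2, chr1:134079156-134079355, minus strand: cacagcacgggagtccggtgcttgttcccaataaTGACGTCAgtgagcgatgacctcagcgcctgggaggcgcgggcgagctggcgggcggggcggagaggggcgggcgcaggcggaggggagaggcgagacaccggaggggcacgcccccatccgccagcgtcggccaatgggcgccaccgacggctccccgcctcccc
Dusp1, chr17:26508473-26508672, minus strand: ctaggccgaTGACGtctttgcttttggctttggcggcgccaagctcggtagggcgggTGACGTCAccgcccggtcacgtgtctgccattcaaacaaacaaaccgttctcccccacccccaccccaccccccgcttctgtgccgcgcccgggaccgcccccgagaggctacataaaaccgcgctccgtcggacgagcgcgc
Fos, chr12:85473690-85473889, plus strand: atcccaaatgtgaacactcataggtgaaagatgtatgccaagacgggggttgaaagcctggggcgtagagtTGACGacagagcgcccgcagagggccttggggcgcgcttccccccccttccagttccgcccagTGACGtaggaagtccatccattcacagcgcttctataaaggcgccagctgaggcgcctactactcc
Junb, chr8:84978749-84978948, minus strand: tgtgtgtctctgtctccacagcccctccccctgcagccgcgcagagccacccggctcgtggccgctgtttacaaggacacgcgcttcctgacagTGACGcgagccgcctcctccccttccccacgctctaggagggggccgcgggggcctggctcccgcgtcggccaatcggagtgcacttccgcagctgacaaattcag
In the 250 bases before the start, searched on both strands, TGACGTCA was found in 2 of the 14 rising immediate early genes with a promoter in the table (14.3%), in 124 of 4150 genes tested (2.99%) and in 439 of all 27025 promoters (1.62%). A core, TGACG or CGTCA, was found in 7 of the 14 (50%), in 29.4% of genes tested and in 17.9% of all promoters. The CArG box bound by SRF was found in 1 of the 14 (7.14%), in 1.3% of genes tested and in 1.4% of all promoters. These matches are a description of the letters in the window.

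Of 17 genes of glycolysis and of the hypoxia response tested, 13 (76.5%) rose and none fell, against a background of 8.74% and 8.33% (median log2 fold change 0.75). Pgk1, phosphoglycerate kinase, was at 91.8 and 67.3 CPM in the Lats2iECKO libraries and 36.0 and 38.9 CPM in the controls (log2 fold change 1.07, SE 0.14, edgeR adjusted p = 8.37e-04). Lactate dehydrogenase A (Ldha) was at 242 and 222 CPM in the Lats2iECKO libraries and 129 and 131 CPM in the controls (log2 fold change 0.83, SE 0.0763, edgeR adjusted p = 1.48e-04). Mif, a cytokine gene also induced by hypoxia, was at 181 and 135 CPM in the Lats2iECKO libraries and 73.4 and 78.3 CPM in the controls (log2 fold change 1.05, SE 0.12, edgeR adjusted p = 4.20e-04). In these 3 genes no mutant library overlapped a control. The angiogenic factor gene Vegfa was at 142 and 136 CPM in the Lats2iECKO libraries and 74.0 and 70.9 CPM in the controls (log2 fold change 0.94, SE 0.0806, edgeR adjusted p = 1.27e-04). Pfkl, Tpi1, Eno1, Gapdh, Ndrg1, Pkm, Pfkp, Pgam1 and P4ha1 also rose, by 0.57 to 0.99 on the log2 scale. Hif1a, the oxygen-regulated transcription factor gene, had a log2 fold change of 0.05 (edgeR adjusted p = 0.711), and Slc2a3, Egln1 and Gpi1 did not pass either. The count stayed at 13 without cells carrying markers of other types and with free RNA subtracted. Free RNA held Ldha at 550 and 566 CPM against 235 and 243 CPM and Pgk1 at 406 and 401 CPM against 94.2 and 115 CPM.

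**Figure D3:**
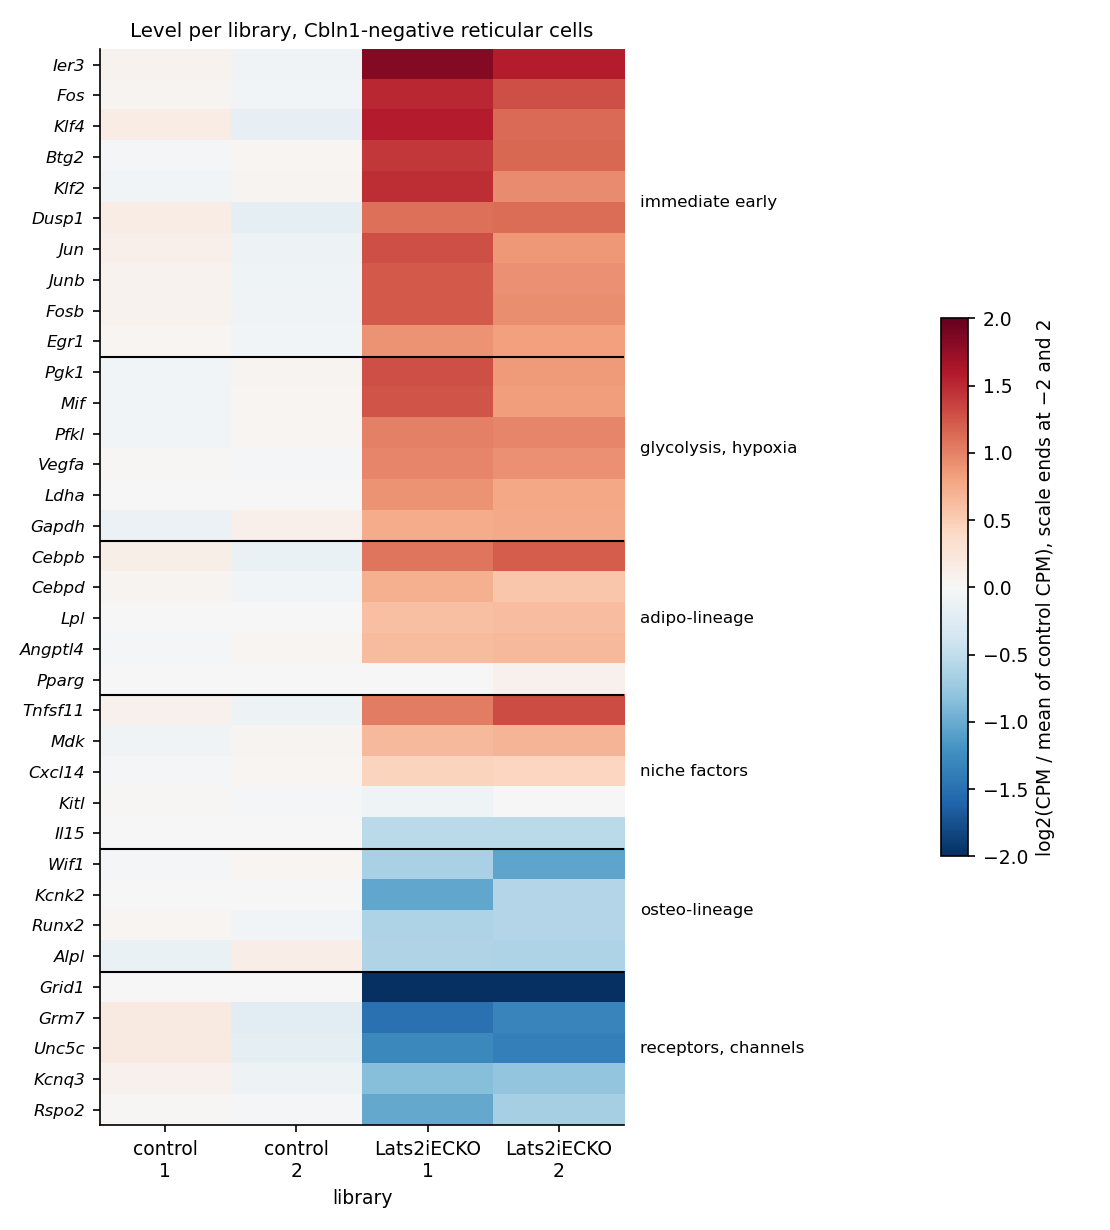
Level of named genes in each library (columns) as log2 of the CPM over the mean of the control CPM, with red above and blue below and the scale ending at −2 and 2. Immediate early, glycolytic and hypoxia genes are red in both Lats2iECKO libraries, bone genes and receptor genes are blue, and Pparg and Kitl are near white. Grid1 lies beyond the end of the scale.

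On a list of genes of reticular cells and their fat-related program, 10 of 27 tested (37.0%) were higher and 3 (11.1%) lower, against a background of 8.74% and 8.33%, with a median log2 fold change of 0.13. The falls came to 1 without Lats2iECKO replicate 1, without control replicate 1 and without control replicate 2. The label's own markers are counted apart from this list, and of the 3 that were tested 2 fell and 0 rose. Rspo2 fell (log2 fold change −0.83, SE 0.11, edgeR adjusted p = 0.00123) and Kcnq3 fell, as given above, while Hp did not pass. Lipoprotein lipase (Lpl) was at 2574 and 2621 CPM in the Lats2iECKO libraries and 1706 and 1702 CPM in the controls (log2 fold change 0.61, SE 0.0693, edgeR adjusted p = 4.20e-04). Cebpb and Cebpd, transcription factor genes of early adipogenesis, were at 203 and 223 CPM against 105 and 88.4 CPM (log2 fold change 1.14, SE 0.10, edgeR adjusted p = 1.27e-04) and at 401 and 360.1 CPM against 253 and 235 CPM (log2 fold change 0.64, SE 0.0880, edgeR adjusted p = 0.00128). Cebpd is also an immediate early gene. Groups did not overlap in these genes. Cebpa rose less (log2 fold change 0.39, SE 0.0769, edgeR adjusted p = 0.00807), and Pparg, the master regulator of adipocytes, had a log2 fold change of 0.04 (edgeR adjusted p = 0.728). Igfbp5 (log2 fold change 0.49), Trf (0.45), Cxcl14 (0.44), Apoe (0.29) and Igfbp4 (0.27) were the other abundant reticular transcripts that rose. Ebf3 fell (log2 fold change −0.47, SE 0.0735, edgeR adjusted p = 0.00259) and so did Ebf1 (log2 fold change −0.28, SE 0.0753, edgeR adjusted p = 0.0283), genes of early B cell factors that keep reticular cells from turning into bone, and Gdpd2. Foxc1, another factor needed for the reticular state, was at a log2 fold change of −0.11 (edgeR adjusted p = 0.453).

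Fabp4, the fatty acid-binding protein of adipocytes, had the largest rise of the genes tested. It was at 157 and 165 CPM in the Lats2iECKO libraries and 37.0 and 54.6 CPM in the controls (log2 fold change 1.81, SE 0.15, edgeR adjusted p = 1.27e-04). Fabp4 UMIs were found in 15.8% and 20.7% of thinned mutant members against 9.77% and 10.8% of controls (21.9% and 23.2% against 11.5% and 13.6% unthinned). A tested gene had to be detected in at least 20% of unthinned members of either genotype. Fabp4 met this through the mutants alone, where it was the higher, and by a small margin. ECs express the gene, with a UMI in 78.9% to 86.0% of thinned cells, and free RNA held 893 and 1156 CPM against 497 and 490.2 CPM. With free RNA subtracted the log2 fold change was 2.04, and without cells carrying markers of other types 1.49. In the list of lipid and cholesterol genes, 7 were tested, 4 rose (57.1%) and 2 fell (28.6%), against a background of 8.74% and 8.33%. The falls came to 1 without Lats2iECKO replicate 2 and without control replicate 1. Angptl4, which inhibits lipoprotein lipase, was at 462 and 470.4 CPM in the Lats2iECKO libraries and 291 and 307 CPM in the controls (log2 fold change 0.64, SE 0.0800, edgeR adjusted p = 7.35e-04), and the lipid droplet gene Plin2 at a log2 fold change of 0.64 (edgeR adjusted p = 0.00458). Lpl and Apoe, named above, were the others that rose. Apolipoprotein D (Apod) fell (log2 fold change −1.11, SE 0.11, edgeR adjusted p = 1.76e-04), as did the cholesterol exporter gene Abca1 (log2 fold change −0.41, SE 0.10, edgeR adjusted p = 0.0231).

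Of 30 listed factors through which these cells act on hematopoiesis, 17 were tested, 5 (29.4%) rose and 3 (17.6%) fell, against a background of 8.74% and 8.33%. The rises came to 3 with DESeq2, with equal cells per library and with no filter. Tnfsf11, which encodes the osteoclast-inducing cytokine RANKL, rose most, at 103 and 124 CPM in the Lats2iECKO libraries and 53.7 and 47.2 CPM in the controls (log2 fold change 1.17, SE 0.11, edgeR adjusted p = 1.89e-04). A Tnfsf11 UMI was found in 27.0% and 30.3% of thinned mutant members against 19.1% and 17.6% of controls (34.4% and 31.6% against 22.2% and 21.5% unthinned) and in at most 1.29% of thinned ECs. Its decoy receptor gene Tnfrsf11b was under the filter, at 25.7 and 22.4 CPM in the Lats2iECKO libraries and 17.7 and 14.7 CPM in the controls. The growth factor gene Mdk was at 356 and 364 CPM in the Lats2iECKO libraries and 218 and 238 CPM in the controls (log2 fold change 0.66, SE 0.0823, edgeR adjusted p = 7.40e-04), and Cxcl14 at 1701 and 1678 CPM in the Lats2iECKO libraries and 1214 and 1278 CPM in the controls (log2 fold change 0.44, SE 0.0734, edgeR adjusted p = 0.00351). Bmp4 (log2 fold change 0.36, SE 0.0828, edgeR adjusted p = 0.0163) and Cx3cl1 (log2 fold change 0.39, SE 0.10, edgeR adjusted p = 0.0254) rose by smaller steps. Il15, a cytokine for natural killer and memory T cells, fell and was at 86.7 and 87.0 CPM in the Lats2iECKO libraries and 127 and 125 CPM in the controls (log2 fold change −0.54, SE 0.0813, edgeR adjusted p = 0.00213). The Notch ligand gene Jag1 (log2 fold change −0.53, SE 0.13, edgeR adjusted p = 0.0241) and Il34, a ligand of the Csf1 receptor (log2 fold change −0.37, SE 0.0802, edgeR adjusted p = 0.0129), fell as well. Of the classical factors, Kitl was at 2542 and 2721 CPM in the Lats2iECKO libraries and 2755 and 2642 CPM in the controls (log2 fold change −0.04, SE 0.0724, edgeR adjusted p = 0.753), and its groups overlapped. Vcam1 (log2 fold change 0.14), Angpt1 (−0.15), Csf1 (−0.20), Il7 (0.24) and Bmp6 (0.00) had adjusted p between 0.0728 and 0.995 in the edgeR test. Ccl2 and Ccl19 varied between libraries of 1 genotype and did not pass, with Ccl2 at 104 and 249.8 CPM in the Lats2iECKO libraries and 209 and 168 CPM in the controls. Cxcl1 was under the filter at 45.7 and 68.6 CPM in the Lats2iECKO libraries and 17.7 and 12.6 CPM in the controls, and Thpo, Flt3l, Il6, Tslp and Ptn were also not tested.

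Of 17 osteo-lineage genes tested, 11 fell and 1 rose, against a background of 8.33% and 8.74%, with a median log2 fold change of −0.51. Runx2, the transcription factor that starts osteoblast differentiation, was at 1232 and 1249.7 CPM in the Lats2iECKO libraries and 1946 and 1822 CPM in the controls (log2 fold change −0.60, SE 0.0745, edgeR adjusted p = 7.06e-04). The osteoblast factor gene Sp7 was at 29.8 and 24.2 CPM in the Lats2iECKO libraries and 42.0 and 46.4 CPM in the controls (log2 fold change −0.72, SE 0.14, edgeR adjusted p = 0.00784). In these genes both mutant libraries were under both controls. Alkaline phosphatase (Alpl) was at 133 and 132 CPM in the Lats2iECKO libraries and 185 and 221 CPM in the controls (log2 fold change −0.61, SE 0.10, edgeR adjusted p = 0.00354), and the Wnt inhibitor gene Wif1 at 218 and 165 CPM in the Lats2iECKO libraries and 332 and 349 CPM in the controls (log2 fold change −0.84, SE 0.12, edgeR adjusted p = 0.00139). Limch1, Tnc, Fap and Kcnk2 fell too, with log2 fold changes of −0.51 to −0.79. Ibsp, bone sialoprotein, fell least, at 2102 and 2079 CPM in the Lats2iECKO libraries and 2616 and 2453 CPM in the controls (log2 fold change −0.28, SE 0.0718, edgeR adjusted p = 0.0262). Phex, which controls phosphate, was the only member that rose, at 108 and 96.4 CPM in the Lats2iECKO libraries and 72.3 and 67.4 CPM in the controls (log2 fold change 0.54, SE 0.0938, edgeR adjusted p = 0.00413). Spp1, Mmp13, Col1a2, Dlx5 and Col1a1 did not pass, and Col1a1 was at 816 and 1014 CPM in the Lats2iECKO libraries and 935 and 874 CPM in the controls, with overlapping groups. The count was 11 without cells carrying markers of other types and 10 with free RNA subtracted. Osteoblast markers did not choose the cells removed, so that fit could not single out cells high in osteoblast RNA. Osteoblast markers summed to 19510 and 15432 CPM in free RNA of the mutants and to 45942 and 47769 CPM in that of the controls. Bglap2, an osteocalcin gene, was at 126 and 95.5 CPM in the Lats2iECKO libraries and 179 and 252 CPM in the controls (log2 fold change −0.97, SE 0.17, edgeR adjusted p = 0.00460) but turned to a rise of 1.18 once free RNA was subtracted, so its direction rests on that choice.

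**Figure D4:**
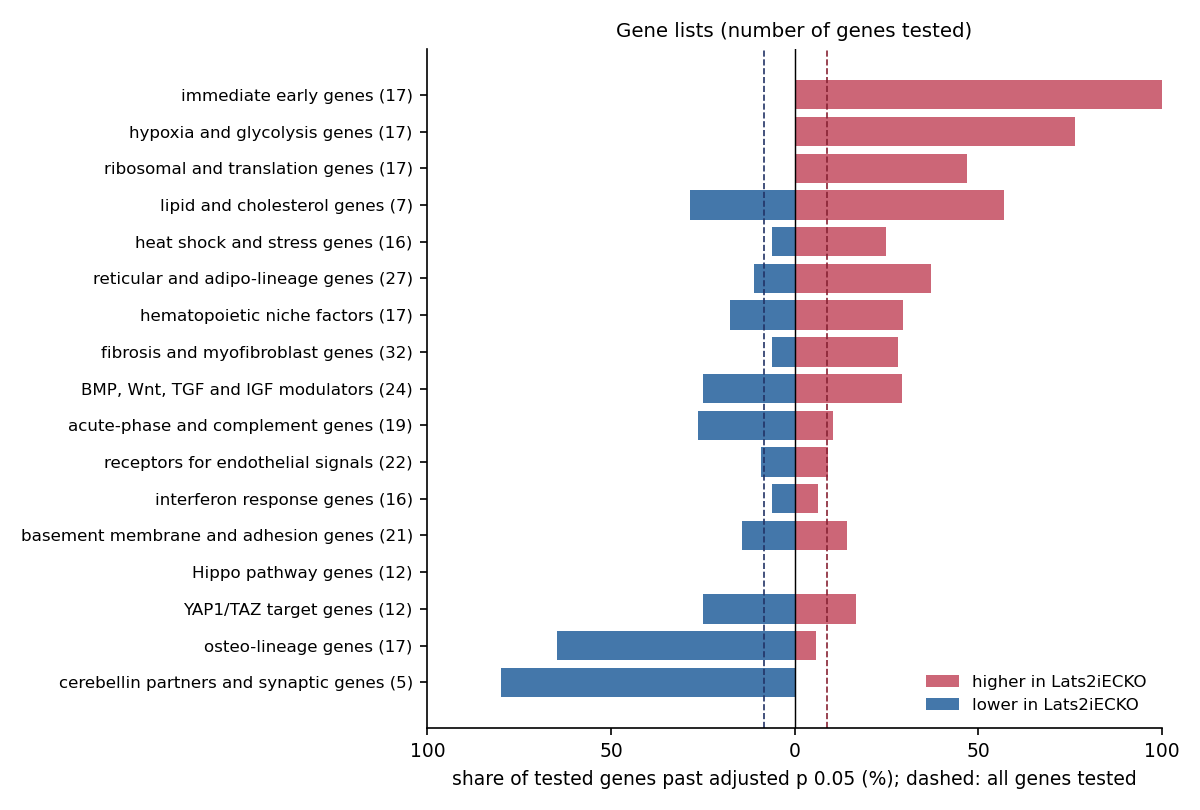
Share of the tested genes of each list (y axis, number tested in brackets) that passed an adjusted p of 0.05, higher to the right in red and lower to the left in blue, in percent of tested genes (x axis). Dashed lines mark the shares over all genes tested, 8.74% higher and 8.33% lower. Immediate early and hypoxia genes extend to the right, and osteo-lineage and synaptic genes to the left.

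Of 32 matrix and fibrosis genes tested, 9 (28.1%) rose, against a background of 8.74%, and 2 (6.25%) fell, against 8.33% (median log2 fold change 0.11). Without cells carrying markers of other types 6 rose and 4 fell, and without control replicate 2 the falls came to 4. Tgfb1, the main profibrotic cytokine, was at 62.6 and 64.1 CPM in the Lats2iECKO libraries and 39.1 and 37.2 CPM in the controls (log2 fold change 0.73, SE 0.10, edgeR adjusted p = 0.00141). Collagen III (Col3a1) was at 191 and 236 CPM in the Lats2iECKO libraries and 136 and 154 CPM in the controls (log2 fold change 0.56, SE 0.11, edgeR adjusted p = 0.00645) and decorin (Dcn) at 885 and 985 CPM in the Lats2iECKO libraries and 503 and 664 CPM in the controls (log2 fold change 0.68, SE 0.12, edgeR adjusted p = 0.00536). With Cxcl12 of at least 3 UMIs as the rule, Dcn had a log2 fold change of −0.068. The groups did not overlap. Without cells carrying markers of other types, however, Col3a1 and Dcn had log2 fold changes of 0.36 and 0.17 and lost the call. Tgfb1 stayed at 0.70 in that fit. Fibroblast and smooth muscle markers did not choose the cells removed. Bgn, Cald1, Vim, Col6a3, S100a6 and Col12a1 rose by 0.27 to 0.49. Col8a1 fell, at 500.2 and 601 CPM in the Lats2iECKO libraries and 874 and 828 CPM in the controls (log2 fold change −0.63, SE 0.10, edgeR adjusted p = 0.00236), and so did Tpm1 (log2 fold change −0.42, SE 0.0758, edgeR adjusted p = 0.00520). Fn1, Lox, Loxl2 and Col5a1 were among the 21 that did not pass. In these cells Acta2, the myofibroblast actin gene, was too low to be tested. Among 21 basement membrane and adhesion genes, 3 rose (Vcl, Nid1 and Lamb1) and 3 fell (Itga11, Cdh2 and Lama4), none by more than 0.38 in size on the log2 scale. Each share was 14.3%, against a background of 8.74% and 8.33%. Without control replicate 1, and likewise without control replicate 2, 1 was higher and 1 lower, and without Lats2iECKO replicate 2 the rises came to 1. With DESeq2 only Cdh2, of these 6, had an adjusted p of at most 0.05.

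Because LATS2 restrains YAP1 and TAZ in the targeted ECs, genes of this pathway were also read in the reticular cells. Over all genes tested, 8.74% rose and 8.33% fell. Of 12 Hippo pathway genes tested, none passed an adjusted p of 0.05 in the edgeR test and none with DESeq2, and 4 had an unadjusted edgeR p under 0.05, all lower. By adjusted p, 1 was lower without Lats2iECKO replicate 2, 1 without control replicate 2 and 2 with scaling to library size, and without cells carrying markers of other types 2 were lower. Yap1 had a log2 fold change of −0.11 (edgeR adjusted p = 0.417), Wwtr1, which encodes TAZ, 0.12 (edgeR adjusted p = 0.311) and Tead1 −0.22 (edgeR adjusted p = 0.0803). Of 12 YAP1/TAZ target genes tested, 2 (16.7%) rose and 3 (25%) fell, and the falls came to 1 without control replicate 1. The matricellular genes Ccn2 and Ccn1 rose, with Ccn2 at 404 and 316 CPM in the Lats2iECKO libraries and 187 and 198 CPM in the controls (log2 fold change 0.90, SE 0.11, edgeR adjusted p = 6.70e-04) and Ccn1 at 387 and 391 CPM in the Lats2iECKO libraries and 228 and 209 CPM in the controls (log2 fold change 0.83, SE 0.0821, edgeR adjusted p = 1.94e-04). Both are also induced as early response genes. Igfbp3 (log2 fold change −0.50, SE 0.0926, edgeR adjusted p = 0.00626), Rbms3 (log2 fold change −0.34, SE 0.0777, edgeR adjusted p = 0.0153) and Ptpn14 (log2 fold change −0.30, SE 0.0885, edgeR adjusted p = 0.0417) fell. Without cells carrying other markers Ccn2 had a log2 fold change of 0.52 and Ccn1 of 0.77, and free RNA held Ccn2 at 1489 and 1438 CPM against 619 and 616 CPM.

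Of 24 modulators of BMP, Wnt, TGF-beta and IGF signalling, 7 (29.2%) rose and 6 (25%) fell, against a background of 8.74% and 8.33%. Id1, a BMP target gene, was at 109.8 and 55.2 CPM in the Lats2iECKO libraries and 40.7 and 37.0 CPM in the controls (log2 fold change 1.06, SE 0.23, edgeR adjusted p = 0.0120), with the replicates of the mutant apart. Id2 (log2 fold change 0.78), Igfbp5 (0.49), Wnt4 (0.42), Smad7 (0.42), Bmp4 (0.36) and Igfbp4 (0.27) were the other rises, and Rspo2, Igfbp3, Sfrp4, Ltbp1, Igf1 and Bmp5 fell. Igf1 was at a log2 fold change of −0.38 (edgeR adjusted p = 0.0146). Of 22 receptors for signals made by ECs, 2 rose and 2 fell, a share near the background, and the rises came to 1 without control replicate 1 and the falls to 1 without Lats2iECKO replicate 1. The endothelin receptor gene Ednra was the clearest, at 90.8 and 90.1 CPM in the Lats2iECKO libraries and 153 and 158 CPM in the controls (log2 fold change −0.78, SE 0.0798, edgeR adjusted p = 2.35e-04). Sdc4 and Tgfbr1 rose and Notch3 fell. Pdgfra, Pdgfrb, Notch1, Notch2 and Fgfr1 did not pass. Among 19 acute-phase and complement genes, 5 (26.3%) fell, against a background of 8.33%, and 2 (10.5%) rose, near the background of 8.74%. The receptor genes Lifr (log2 fold change −0.63, SE 0.10, edgeR adjusted p = 0.00231) and Il6st (log2 fold change −0.32, SE 0.0740, edgeR adjusted p = 0.0164), of the interleukin 6 family, fell together with Il1r1, C3 and Serpina3n, and the feedback inhibitor gene Socs3 (log2 fold change 0.52, SE 0.10, edgeR adjusted p = 0.00814) and Stat3 rose. Of 16 interferon response genes, Oasl2 fell and Irf1 rose, a share of 6.25% each, near the background, and neither passed with DESeq2.

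Of 16 heat shock and stress genes, 4 (25%) rose, against a background of 8.74%, and 1 (6.25%) fell, near the background of 8.33%. The rises came to 7 without cells carrying markers of other types and to 7 without Lats2iECKO replicate 2. Cdkn1a, which encodes the cell cycle inhibitor p21, was at 132 and 104 CPM in the Lats2iECKO libraries and 44.7 and 32.8 CPM in the controls (log2 fold change 1.60, SE 0.16, edgeR adjusted p = 1.94e-04), and Txnip at 563 and 555 CPM in the Lats2iECKO libraries and 324 and 319.7 CPM in the controls (log2 fold change 0.80, SE 0.0777, edgeR adjusted p = 1.93e-04). Atf4 and Hspa1a rose and Hspb1 fell. The chaperones Hspa5 (log2 fold change −0.11) and Hspa8 (0.29) did not pass. Of 17 ribosomal and translation genes, 8 (47.1%) rose and none fell, but this count came to 0 without Lats2iECKO replicate 1, to 2 without control replicate 1, to 15 without Lats2iECKO replicate 2 and to 4 with free RNA subtracted. The cell cycle genes Hmgb2 and Pcna, the only ones of 15 that were tested, did not pass in edgeR or in DESeq2, and 1 of them had an unadjusted edgeR p under 0.05. Both were higher past an adjusted p of 0.05 in edgeR without cells carrying markers of other types and without control replicate 2, and 1 without Lats2iECKO replicate 2. The kinase gene Pim3 was at 103 and 105 CPM in the Lats2iECKO libraries and 32.5 and 36.6 CPM in the controls (log2 fold change 1.59, SE 0.10, edgeR adjusted p = 3.47e-05) and Rnf144a, a ubiquitin ligase gene, at 65.2 and 57.8 CPM in the Lats2iECKO libraries and 24.1 and 25 CPM in the controls (log2 fold change 1.32, SE 0.11, edgeR adjusted p = 1.28e-04). Both had alike replicates. The detection filter could be met through the mutants alone for these rises too, and their shares of cells are not given. Other genes past both thresholds were Irs2, Snai1, Sertad1, G0s2, Nasp, Tob1, Bcl2l11, Ddit3, Cdkn2aip, Avil, Chka, Dynlt1b, Higd1a and Slc38a2 and the predicted genes Gm12811, Gm14036, Gm8210 and Gm13841. The last pair had identical values in each library, so the copies cannot be told apart and are uncertain.

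A few large rises were in genes of chondrocytes and of the joint surface. Prg4, lubricin, was at 165 and 705 CPM in the Lats2iECKO libraries and 141 and 131 CPM in the controls (log2 fold change 1.69, SE 0.45, edgeR adjusted p = 0.0287), with Lats2iECKO replicate 2 alone far above the rest. Without that library its log2 fold change was 0.28, and without cells carrying markers of other types 0.57. Prg4 is itself among the chondrocyte markers that chose the cells removed, so a smaller value in that fit is partly built in. Col10a1, of hypertrophic chondrocytes, was at 632 and 461 CPM in the Lats2iECKO libraries and 75 and 280.5 CPM in the controls (log2 fold change 1.62, SE 0.44, edgeR adjusted p = 0.0311), and without called doublets its log2 fold change was −0.075. Ecrg4 was at 725 and 1069 CPM in the Lats2iECKO libraries and 333 and 301 CPM in the controls (log2 fold change 1.5, SE 0.15, edgeR adjusted p = 2.31e-04) and went to 0.28 without cells carrying other markers. Cytl1 was at 455 and 608 CPM in the Lats2iECKO libraries and 313 and 135 CPM in the controls (log2 fold change 1.25, SE 0.30, edgeR adjusted p = 0.0197), and with at least 2 UMIs each of Lepr and Adipoq its log2 fold change was −0.20. These 4 genes sit among the 12 largest rises, and their values depend on which cells and libraries were kept. With 1 library left out, the log2 fold change ran from 0.96 (without control replicate 1) to 2.86 (without control replicate 2) for Col10a1, and from 0.77 (without control replicate 2) to 1.98 (without control replicate 1) for Cytl1. Col10a1 did not pass without Lats2iECKO replicate 1, and Prg4, Col10a1 and Cytl1 did not pass with DESeq2. Of 6 chondrocyte markers tested, Prg4, Col10a1 and Sox9 passed, while Col2a1, Comp and Chad did not, against a background of 8.74% of all genes higher. The count came to 1 without Lats2iECKO replicate 1, to 5 without Lats2iECKO replicate 2 or control replicate 2, and to 6 without control replicate 1, and 1 of the 6 passed with DESeq2.

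Col10a1, Ecrg4 and Cytl1 were also among the 10 genes that varied most between member cells of 1 library. Over 6606 genes at 20 CPM or more, the ratio of the variance between cells to that of counting error was at least 131 in each library for Col1a1, 116 for Mgp, 95.2 for Col2a1 and 58.4 for Col10a1. Ecrg4, Cytl1 and Sparc followed, with least ratios of 55.7, 43.2 and 41.2, and then the interferon-induced chemokine genes Cxcl10 and Cxcl9, at 40.0 and 35.0. Rn18s, the ribosomal RNA, had a least ratio of 81.7. A ratio above 1 means that cells differ by more than counting error. Members called as doublets, 19 and 18 in the mutants and 77 and 72 in the controls, were left in. The ratios were not computed without them. Col1a1, Mgp, Col2a1, Col10a1 and Sparc are genes of bone and cartilage matrix.

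Members were compared with Cbln1-positive reticular cells of the same libraries (145 and 170 against 487 and 454 cells). Some of the genes higher in members are on the osteo-lineage list, whose share was not counted in this comparison. Since Cbln1 chose the classes, these differences are given as a description. Of 5643 genes, 10 (0.177%) were higher and 7 (0.124%) lower in Cbln1-negative cells. These counts moved with the library left out, and with no filter on the share of cells they came to 87 and 22. Kcnk2 had a log2 difference of 2.21 (SE 0.12), with 77.5 and 106 CPM against 160 and 159 CPM in members and 14.9 and 37.6 CPM against 37.5 and 26.3 CPM in Cbln1-positive cells. Nav2, a neuron navigator gene, differed by 2.16 (SE 0.11), Wif1 by 1.63, Alpl by 1.55, Slc20a2 by 1.42, Limch1 by 1.36, Gm20619 by 1.27 and Col1a1 by 1.14. Mmp13 and Kcnq3 completed the 10. Lower in members were Ptchd1 (−1.12), Gm20125, Cybb, Crym, Slco2b1, the glutamate transporter gene Slc1a3 (−1.02) and Rnf150. For Grid1 the classes differed little, with 11.9 and 2.93 CPM against 118 and 112 CPM in Cbln1-positive cells and a difference of −0.19 (SE 0.0827).

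The effect of the genotype was then compared between the 2 reticular classes with an interaction term, the library as a block. Of 5643 genes, 1 (0.0177%) had a higher and 1 (0.0177%) a lower log2 fold change in Cbln1-negative cells past both thresholds, and 363 had an unadjusted p under 0.05. By adjusted p alone 2 (0.0354%) were higher. Col1a1 stood at 816 and 1014 CPM in the Lats2iECKO libraries and 935 and 874 CPM in the controls in members and at 257 and 235 CPM against 746 and 545 CPM in Cbln1-positive cells, a difference in log2 fold change of 1.35, SE 0.15, edgeR adjusted p = 0.00379. The Cbln1-positive mutant cells were the low ones. With 1 library left out the difference ran from 1.13 to 1.56, but it passed an adjusted p of 0.05 only in the fit without Lats2iECKO replicate 1 (edgeR adjusted p = 0.0167 to 0.301). Free RNA held Col1a1 at 5425 and 4589 CPM against 17647 and 18489 CPM. The hemoglobin gene Hbb-bt was at 169 and 138 CPM against 157 and 205 CPM in members and 142 and 132 CPM against 79.5 and 85.5 CPM in Cbln1-positive cells, a difference of −1.01, SE 0.14, edgeR adjusted p = 0.0206, and passed in no fit with 1 library left out. Zfp36, an immediate early gene that destabilizes cytokine mRNA, differed by 0.81, SE 0.12, edgeR adjusted p = 0.0281, and also passed in none of these fits. In the main fit no difference of response by Cbln1 state was shown for the other genes tested. With equal cells from both classes, 4 genes were higher past both thresholds. Some fits with 1 library left out also called genes other than these. Side by side, Grid1 fell to 11.9 and 2.93 CPM in Cbln1-positive cells as well (log2 fold change −3.94), and in those cells 11 of 16 immediate early, 9 of 16 hypoxia and 0 of 14 osteo-lineage genes rose and 0, 0 and 12 fell, where 7.46% of all genes rose and 6.88% fell. Both classes come from the same libraries.

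The response was also compared with that of another stromal class of the same libraries. Stromal cells with Wif1 and Postn but no Adipoq numbered 178 and 225 in the mutants and 336 and 319 in the controls. The genotype effect differed between them and the members in 119 of 7108 genes (1.67%) that were higher, and 275 (3.87%) that were lower, in members. Fos and Junb rose in both classes but less in members, with Fos at a log2 fold change of 1.40 against 1.98 (difference −0.59, SE 0.14, edgeR adjusted p = 0.0230) and Junb at 1.08 against 2.08 (difference −1.01, SE 0.12, edgeR adjusted p = 7.92e-04). Glycolytic Ldha rose by 0.83 against 1.92 (difference −1.09, SE 0.13, edgeR adjusted p = 0.00103). Lpl also rose less in members, by 0.61 against 2.03 (difference −1.44, SE 0.19, edgeR adjusted p = 0.00157). Some reticular genes went opposite ways. Mdk rose by 0.66 in members and fell to −0.91 in the other class, with 68.6 and 59.4 CPM against 131 and 130.2 CPM there (difference 1.56, SE 0.14, edgeR adjusted p = 2.55e-04). Igfbp5 (0.49 against −1.13) and Apoe (0.29 against −0.97) had the same pattern (edgeR adjusted p of the differences 1.36e-04 and 4.36e-04). Fits of the Wif1/Postn-positive class were not repeated with free RNA subtracted. Cells that met the member rule except for having no Adipoq numbered 49 and 57 against 223 and 221. How many of them fell in this class was not counted. By adjusted p alone, 20 of 21 immediate early, 25 of 26 hypoxia and 26 of 37 fibrosis genes rose in the Wif1/Postn-positive cells, against 17 of 17, 13 of 17 and 9 of 32 in members, and of all genes tested in the former 18.3% rose and 15% fell. More genes passed the filter in the former, and their cells were deeper, with medians of 9290 to 10256 UMIs per cell.

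**Figure D5:**
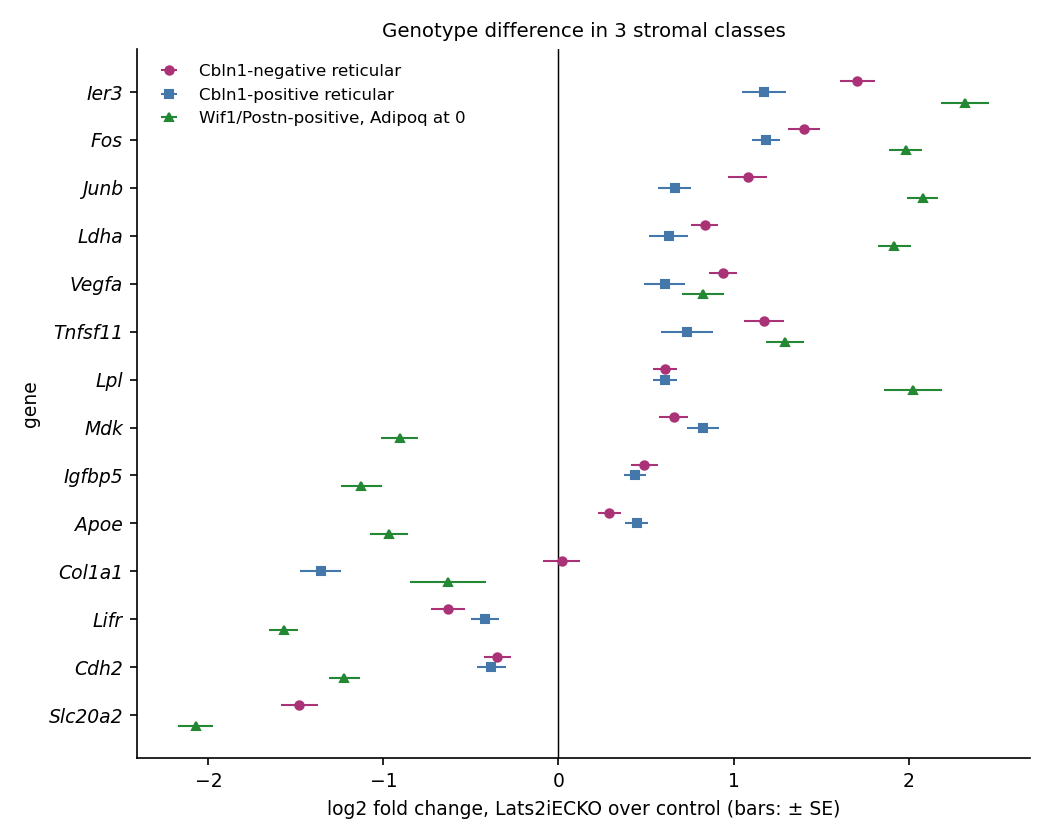
Log2 fold change of Lats2iECKO over control (x axis, bars ± SE from edgeR) for named genes (y axis) in Cbln1-negative reticular cells, Cbln1-positive reticular cells and Wif1/Postn-positive cells without Adipoq. The immediate early genes lie to the right in all classes, and Mdk, Igfbp5 and Apoe lie right of 0 in the reticular classes and left of 0 in the Wif1/Postn-positive cells. Col1a1 is at 0.02 in members and at −1.36 in Cbln1-positive cells, where Slc20a2 was not tested.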

How the data were processed

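Single-cell RNA was captured with 10x Genomics 3′ chemistry from 2 Lats2iECKO and 2 control libraries. Per the submitters' processing notes and the study's methods, the authors trimmed reads with cutadapt 3.5 and aligned them with STARsolo 2.7.10a to GRCm39 with GENCODE M26, to which transgene and reporter sequences were added. They counted exonic and intronic reads and shared multi-gene UMIs between genes, so the deposited matrices hold expected counts (9.09% to 9.95% of entries are not whole), which were summed and then rounded here.

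Barcodes were kept at 1000 UMIs, 800 genes, under 15% mitochondrial and under 5% hemoglobin UMIs, and members were chosen by the gene rule alone, without clustering. Members and gene lists were chosen with earlier results of these data known. Counts were summed per library and tested with edgeR 4.0.16 (limma 3.58.1, R 4.3.3), with TMM factors, quasi-likelihood tests and Benjamini-Hochberg adjustment. Genes had to pass filterByExpr and to be detected in 20% or more of the member cells of a genotype. The code was tested on simulated data. Genes of the rule that passed the filter entered the fits and the adjustment, but their results were left out. Some genes that met the naming rule are not reported here, though list counts and medians include them. Class comparisons had the library as a block.

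Named genes were the 12 largest rises and falls past both thresholds (mean of 20 CPM or more in either group, no overlap of libraries), in each of 30 lists the 4 largest past the adjusted p and the 2 most abundant, all genes of the niche, marker, rule and Hippo lists, the 8 largest differences in each direction between classes and the 10 most variable. Other genes named beside a list count were picked after their values were seen, to show which members the count holds. Doublets were scored with Scrublet in scanpy 1.11.5 and called at 0.8% per 1000 barcodes, but left in except in 1 alternative. Alternatives were DESeq2 1.42.0, other scalings and filters, other rule thresholds, free RNA subtraction, left-out libraries and the replicate block. Python 3.11.15 with numpy 2.4.6, pandas 2.3.3, scipy 1.17.1 and matplotlib 3.10.9 was used. Gene positions are from GENCODE M39. Depth is the total of UMIs per library, and intervals cover counting error only.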

Additional observations from a re-analysis of the deposited data

Results flagged for a closer look

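The genotype effect differed between Cbln1-negative and Cbln1-positive reticular cells, by the interaction test, in 3 genes. The difference in log2 fold change was 1.35 for Col1a1, 0.81 for Zfp36 and −1.01 for Hbb-bt. With 1 library left out, Col1a1 passed in 1 of 4 fits, the one without Lats2iECKO replicate 1, and Zfp36 and Hbb-bt in 0 of 4.

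Against the Wif1/Postn-positive cells without Adipoq, genes with extreme interaction values in either direction were named. Higher in members were Gask1a (difference in log2 fold change 2.47), Pdzd2 (2.30), Mmd (2.18), Fbn2 (2.10), Gm4951 (2.08), Pdgfd (2.03), Adamts9 (1.99) and Fam174b (1.89). Lower in members were Apod (−3.31), Ccl2 (−3.25), Slc16a3 (−3.19), Cd109 (−3.04), Edil3 (−2.95), Matn2 (−2.91) and Pla1a (−2.90). Both tests share the member counts.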

How the results depend on the processing

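For 133 named genes and their alternatives, 2442 values kept direction and side of the threshold, 144 lost the call, 51 gained it and 10 turned. Called genes, 42 higher and 16 lower, came to 192 and 80 with no filter on the share of cells and to 70 and 40 with no filter, and to 26 to 51 and 17 to 24 with 1 library left out. By adjusted p alone DESeq2 called 264 and 190 against 463 and 441. The replicate number as a block gave 43 and 17, but deviations of the same number correlated at −0.0892 between the 2 groups, so the numbers are not shown to pair the libraries.

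The interaction with Cbln1-positive cells gave 1 and 1 genes, 4 higher with equal cells from both classes, 0 lower with no filter on the share of cells, and 0 to 2 higher and 0 to 0 lower with 1 library left out. Between the classes, 10 higher and 7 lower became 87 and 22 with no filter on the share of cells, and 10 to 19 and 4 to 10 with 1 library left out. Against Wif1/Postn-positive cells the lower genes ran from 228 to 302 and the higher from 103 to 150 with 1 library left out, and the lower came to 439 with no filter on the share of cells. These settings of the Wif1/Postn comparison and the removal of cells carrying other markers were chosen after seeing the data. The share with Cbln1 at 0 differed by −7.66 in place of −4.95 percentage points in cells of at least 5000 UMIs.

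Rising hypoxia genes went from 13 to 20 with no filter on the share of cells, reticular and adipo-lineage genes from 10 to 5 with no filter, and niche factors from 5 to 3 with DESeq2, with no filter and with equal cells per library. Falling osteo-lineage genes went from 11 to 7 with no filter, which tests more genes. Log2 fold changes turned for Col10a1 (−0.075) and Hba-a1 (0.59) without called doublets, Hba-a1 (0.83) without cells carrying other markers, Cytl1 (−0.20) with at least 2 UMIs of Lepr and Adipoq, Ccl2 (0.41) and Ccl19 (−0.34) without Lats2iECKO replicate 1 (−0.85 to 0.41 and −0.34 to 0.61 with any 1 library left out), Bglap2 (1.18) and Hbb-bs (−1.79) with free RNA subtracted, Dcn (−0.068) with Cxcl12 of at least 3 UMIs and Col1a1 (−0.27) with no condition on Cbln1. Hba-a1 and Hbb-bs are erythroid markers. Such markers helped to choose the cells removed and to set the free RNA share, so the turns of these genes in those fits are partly built in. Except where the construction shows it, the cause was not tested. Genes found in few cells were left out by the filter, so falls or rises in rare transcripts are not covered.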
